A study of Mus musculus with 12 samples.

Results

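The genes Runx2, Sp7, Dlx5, Alpl, Ibsp, Spp1, Bglap, Dmp1, Phex and Mepe, 10 markers of osteoblasts and mineralizing bone, were followed through the mouse osteosarcoma lines Dunn and LM8 at early and late passage. Probes were assigned by the RefSeq accession printed on the array for each of them. Of the 10 genes, 9 had a matched probe, with 11 probes in all, among 20144 genes with a matched probe on the array. Runx2 and Ibsp had 2 probes each, and Bglap had none. Each gene is given by its brightest probe, and the second probe is given where it differed.

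Dunn is a mouse osteosarcoma line of low metastatic potential, labelled as osteoblastic, and LM8 is its metastatic derivative, selected in vivo. Dunn cells were taken at passages 25 (Dunn_25, early) and 86 (Dunn_86, late), and LM8 cells at passages 24 (LM8_24, early) and 91 (LM8_91, late). The late cells descended from the early ones, all cultures were grown in the same medium without any treatment, and RNA was taken before confluence. Each group had 3 replicate samples and 3 arrays. The study's methods describe no repeated passaging series of a line, so a difference with passage describes these early and late cells. Since each line is represented once, a difference between LM8 and Dunn describes this pair of lines, and the comparisons of one group with several others share its arrays.

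Osteoblasts arise from mesenchymal progenitors under the transcription factors Runx2, which commits the cell to the lineage, and Sp7 (osterix), which acts downstream of it. The homeodomain factor Dlx5 promotes both. Maturing osteoblasts make alkaline phosphatase (Alpl), which splits the mineralization inhibitor pyrophosphate, and then the acidic phosphoproteins bone sialoprotein (Ibsp) and osteopontin (Spp1) and the Gla protein osteocalcin (Bglap). Cells that become embedded as osteocytes make dentin matrix protein (Dmp1), the matrix phosphoglycoprotein Mepe and the membrane endopeptidase Phex. Loss of Phex or of Dmp1 leads to phosphate wasting and poorly mineralized bone.

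Between the lines, Phex was the 1 gene of the 9 that changed, and it was higher in LM8 at both passages, by a log2 difference of 4.34 at early and 3.12 at late passage. With passage, none of the 9 changed within Dunn or within LM8. A gene was counted as changed where limma gave an adjusted p under 0.05 over all probes and the difference passed 2-fold, a log2 difference of 1. By this rule 1 of 9 genes changed between the lines at early passage, where 4.55% of all genes did, and 1 of 9 at late passage, where 3.83% did. The corresponding shares were 0 of 9 against 0.00497% of all genes for passage in Dunn, 0 of 9 against 2.82% for passage in LM8 and 0 of 9 against 0.606% for the difference of these passage effects. At an unadjusted p under 0.05 and over 2-fold, 3 of 9 genes passed between the lines at early passage (36.7% of all genes), 3 of 9 at late passage (13.3%), 1 of 9 with passage in Dunn (4.86%), 1 of 9 with passage in LM8 (7.29%) and 1 of 9 for the difference of the passage effects (5.3%). The methods' t-test, adjusted in the same way, called 0 of the 9 with passage in either line. With a single gene called, the shares between the lines describe Phex and not the 9 genes together. The median log2 difference of the 9 genes was -0.20 between the lines at early and 0.51 at late passage, beside medians of -0.76 and -0.55 over all genes. Those medians include genes near background, and over probes well above background on every array compared they were -0.47 and -0.23.

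**Figure D1:**
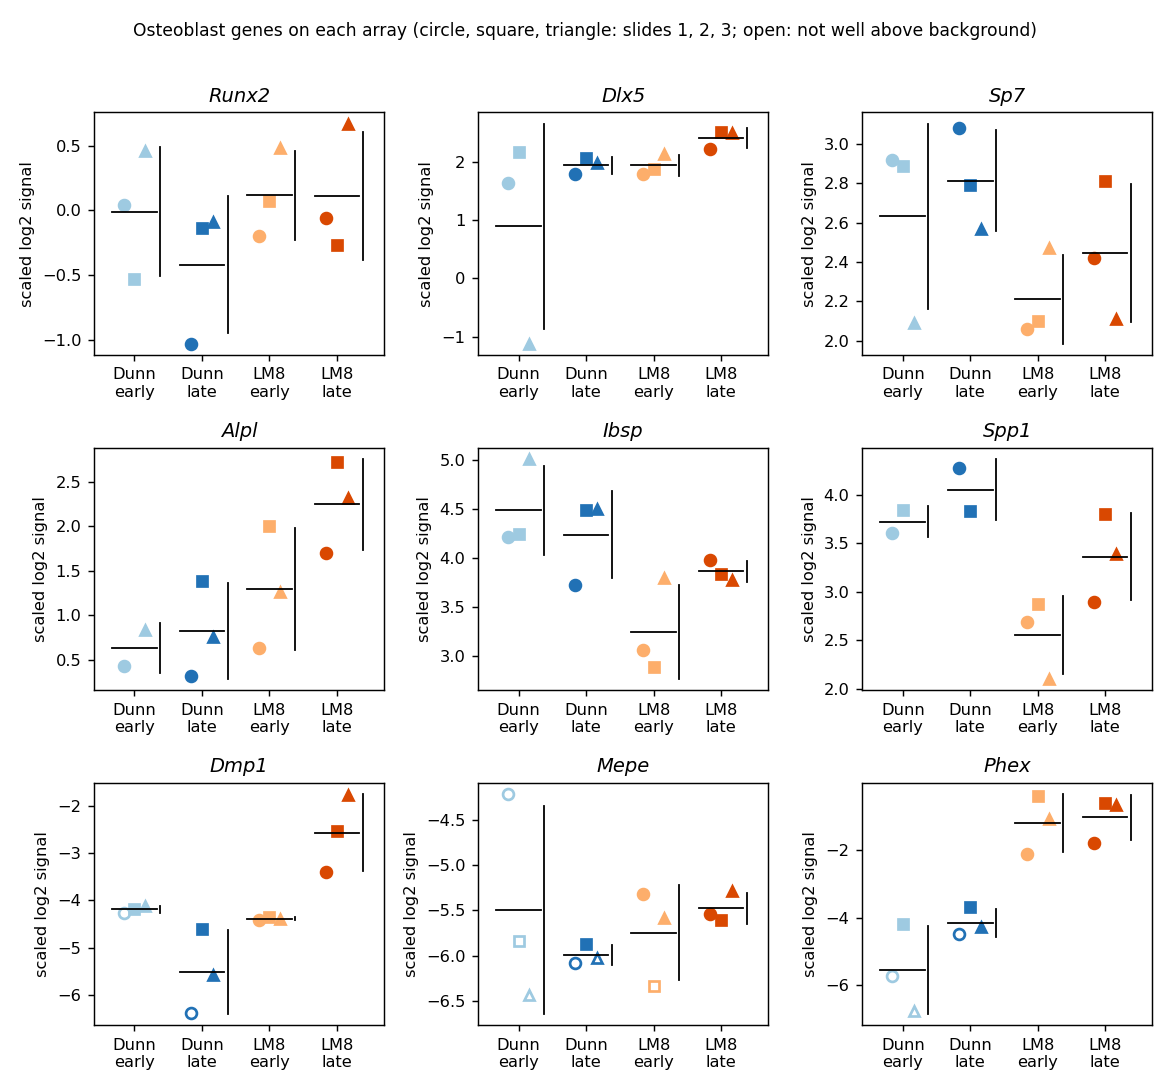
Scaled log2 signal (log2 of the processed signal minus the 75th percentile of the array) of the 9 measured genes on each of the 12 arrays, by group. Horizontal lines are group means, vertical bars are ± 1 SD, open symbols were not well above background, and 3 missing points (1 of Alpl, 2 of Spp1) are spots flagged as outliers. Phex lies between -2.12 and -0.42 in the 6 LM8 arrays and between -6.77 and -3.70 in the 6 Dunn arrays.

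Levels are given below as scaled log2 signal, the log2 of the spot's processed signal minus the 75th percentile of its array, so that 0 is the 75th percentile. Levels of different genes come from different probes, so they do not rank the genes by abundance. The sums over marker lists given below, and the share of 1 gene in them, depend on the probes in the same way. The arrays differed in brightness: the 75th percentile of the processed signal ran from 287.2 to 603.0 in early Dunn, from 685.9 to 961.4 in late Dunn, from 893.0 to 1316.5 in early LM8 and from 1166.4 to 1903.1 in late LM8. Between 39.1% and 59.7% of the probes were well above background, with the lowest share on early Dunn replicate 1, whose local background of 87.0 compared with 22.5 to 34.0 on the other arrays. Late Dunn replicate 1 had the lowest correlation with an array of its own group (0.919). No spot was saturated. The replicate number marks the slide, and each of the 3 slides carried 1 array of each group, so differences within a slide are given beside the pooled ones. The arrays of a group always had the same place on the slide, so place and group cannot be told apart. The part of brightness in the differences of dim genes was not tested.

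None of the early regulators passed the test in any comparison. Runx2 was well above background on all 12 arrays, between -1.03 (late Dunn replicate 1) and 0.67 (late LM8 replicate 3), and its group means lay within 0.54 of each other. Its differences ran from -0.41 to 0.53 in the comparisons of 2 groups, with adjusted p from 0.365 to 0.996. Across the lines the 95% intervals of the difference were -0.78 to 1.04 at early and -0.48 to 1.55 at late passage, so that both included a 2-fold higher level in LM8. The second Runx2 probe was higher in LM8 at both passages, by 0.94 (adjusted p = 0.193) and 1.09 (adjusted p = 0.187), and the late groups did not overlap on it. Its late difference was 2.14-fold with an unadjusted limma p of 0.0221, and 0.88, 1.29 and 1.12 within slides.

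Sp7 was also well above background on every array, between 2.06 and 3.08. Its means were 2.63 ± 0.47 (SD, n = 3) in early Dunn, 2.81 ± 0.26 in late Dunn, 2.21 ± 0.23 in early LM8 and 2.45 ± 0.35 in late LM8. By level the order was late Dunn, early Dunn, late LM8 and early LM8, and neighbours in it differed by less than the larger of their SDs. The differences between the lines were -0.42 (adjusted p = 0.38) and -0.37 (adjusted p = 0.379).

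Dlx5 was 1.63, 2.16 and -1.12 in the 3 early Dunn replicates. In the other 9 arrays it lay between 1.78 and 2.51, so early Dunn replicate 3 stood alone. The early difference between the lines of 1.05 (SE 0.83, adjusted p = 0.351) fell to 0.04 without that array. In LM8, Dlx5 was 1.79, 1.88 and 2.13 at early and 2.21, 2.51 and 2.49 at late passage, which did not overlap, but the difference of 0.47 (SE 0.20) had an adjusted p of 0.297.

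Alkaline phosphatase, the enzyme whose activity is the usual early sign of an osteoblast, was brightest in late LM8. Alpl was 0.43 and 0.83 in early Dunn, where the spot of replicate 2 was flagged as an outlier and left out, and 0.32, 1.39 and 0.75 in late Dunn. It was 0.63, 2.0 and 1.26 in early LM8 and 1.70, 2.72 and 2.32 in late LM8. All late LM8 values thus lay above all Dunn values. At late passage LM8 exceeded Dunn by 1.43 (SE 0.41), 2.69-fold, with an unadjusted p of 0.0158 and an adjusted p of 0.161. The difference was 1.38, 1.33 and 1.57 on the 3 slides, which is a narrower spread than that of the groups, and its adjusted p with slide as a block was again 0.161. With passage in LM8 the difference of 0.95 (adjusted p = 0.297) was 1.06, 0.72 and 1.05 within slides, and the passage groups overlapped.

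Bone sialoprotein and osteopontin, 2 acidic phosphoproteins that bind both integrins and mineral, were lowest in early LM8. Ibsp was 4.21, 4.24 and 5.01 in early Dunn, 3.72, 4.49 and 4.50 in late Dunn, 3.06, 2.88 and 3.79 in early LM8 and 3.98, 3.83 and 3.77 in late LM8. Early LM8 was below early Dunn by 1.25 (SE 0.40) in scaled log2 signal, a 2.37-fold difference, with no overlap between groups. The within-slide differences were -1.15, -1.36 and -1.22. The adjusted p was 0.0776. It was 0.0463 in a single fit of all 12 arrays, which called 11.1% of all genes between the early lines, and 0.0458 without early Dunn replicate 2, where 42.5% of all genes were called. The second Ibsp probe differed by only -0.39 (adjusted p = 0.445), with overlap. Without any scaling between arrays the brightest probe gave 0.22, in a setting that moved the median of all genes from -0.76 to 0.71. At late passage the lines differed by -0.38 (adjusted p = 0.379) on the brightest probe and by 0.28 (adjusted p = 0.526) on the second. With passage in LM8 the 2 probes differed by 0.62 (adjusted p = 0.297) and 0.65 (adjusted p = 0.226), and the groups overlapped on the brightest only.

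Spp1 was 3.61 and 3.84 in early Dunn and 4.28 and 3.83 in late Dunn, where the spots of slide 3 were flagged and left out. It was 2.69, 2.87 and 2.10 in early LM8 and 2.90, 3.80 and 3.39 in late LM8. Early LM8 therefore lay below both measured early Dunn arrays, by 1.17 on average (difference -1.17, SE 0.40, adjusted p = 0.0825), 2.25-fold. Within slides 1 and 2 the difference was -0.92 and -0.97. With slide as a block it was -0.95 (adjusted p = 0.169), which is under 2-fold. With passage Spp1 was higher on each LM8 slide, by 0.21, 0.93 and 1.29, and the groups did not overlap, yet the mean of 0.81 (SE 0.32) had an adjusted p of 0.297. The late lines differed by -0.69 (adjusted p = 0.292).

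The scaled signal of Dmp1, an acidic matrix protein of osteocytes, moved in opposite directions with passage in the 2 lines, without passing the adjusted threshold. It was -4.27, -4.19 and -4.11 in early Dunn and -6.38, -4.61 and -5.58 in late Dunn, with replicate 1 of each group not well above background. In LM8 it was -4.42, -4.35 and -4.40 at early and -3.41, -2.53 and -1.78 at late passage, well above background on all 6 arrays. All 6 early values lay between -4.42 and -4.11, late Dunn was below and late LM8 above them, and neither passage pair overlapped. The unscaled processed signal was 20, 33 and 17 in early and 9, 39 and 14 in late Dunn, so slide 2 was higher at late passage before scaling. Genes of the lists below that were well above background on no array were also lower in late Dunn, from -1.13 (Myf5) to -0.44 (Cdh5). In Dunn the scaled difference of Dmp1 with passage was -1.33 (SE 0.51, 95% interval -2.58 to -0.07, unadjusted p = 0.0415, adjusted p = 0.782) and was -2.10, -0.41 and -1.47 within slides. For LM8 it was 1.81 (SE 0.40, 95% interval 0.86 to 2.76, unadjusted p = 0.00296, adjusted p = 0.0938), 3.51-fold, and 1.01, 1.81 and 2.61 within slides.

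The difference between these passage effects of Dmp1 was 3.14 (SE 0.67, 95% interval 1.64 to 4.64), with an unadjusted p of 0.000905 and an adjusted p of 0.119. It was 3.12, 2.23 and 4.08 on the 3 slides, and with slide as a block the adjusted p was 0.0938. Between the lines Dmp1 differed little at early passage (-0.20, SE 0.28, 95% interval -0.85 to 0.46). At late passage it was 2.95 higher in LM8 (SE 0.62, 7.70-fold, adjusted p = 0.0835). This late difference passed the adjusted threshold without late Dunn replicate 1 (2.52, adjusted p = 0.0415) and in the 12-array fit (adjusted p = 0.00467), and the change in LM8 passed without late LM8 replicate 1 (2.23, adjusted p = 0.0276). When probes that were well above background on fewer than 3 of the arrays were removed before the fit, the passage change in LM8 (adjusted p = 0.0476), the late line difference (0.0259) and the difference of passage effects (0.0403) all passed.

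**Figure D2:**
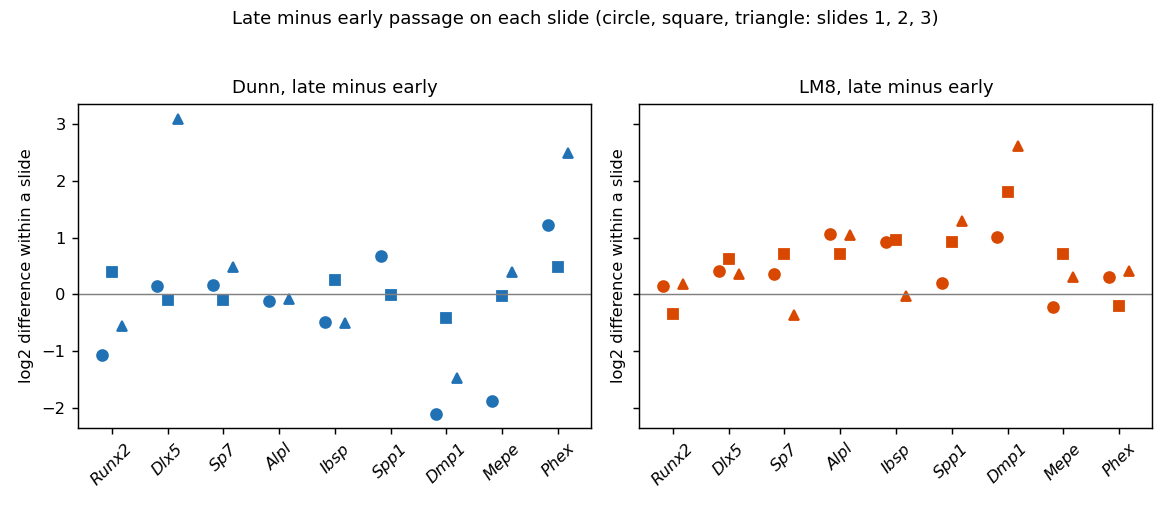
Late minus early passage in scaled log2 signal, within each of the 3 slides, for Dunn (left) and LM8 (right) and the 9 measured genes. Dmp1 is below 0 on every slide in Dunn (-2.10 to -0.41) and above 0 on every slide in LM8 (1.01 to 2.61), and the point of Dlx5 on slide 3 in Dunn (3.10) comes from the low early Dunn replicate 3.

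Mepe, a matrix phosphoglycoprotein of osteocytes, was near background throughout. It was well above background on 0 of 3 early Dunn, 1 of 3 late Dunn, 2 of 3 early LM8 and 3 of 3 late LM8 arrays. Its values ran from -6.44 to -4.22 in early Dunn, from -6.08 to -5.87 in late Dunn, from -6.33 to -5.32 in early LM8 and from -5.61 to -5.29 in late LM8. The late lines differed by 0.51 (SE 0.22, adjusted p = 0.27) and the early lines by -0.25 (adjusted p = 0.768), on values with little signal behind them.

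Phex, the endopeptidase mutated in X-linked hypophosphataemia, separated the lines most widely. It was -5.72, -4.18 and -6.77 in early Dunn, -4.50, -3.70 and -4.28 in late Dunn, -2.12, -0.42 and -1.10 in early LM8 and -1.81, -0.63 and -0.68 in late LM8. The unscaled processed signal was 3 to 33 in early Dunn and 34 to 74 in late Dunn, against 206 to 981 in early LM8 and 332 to 1232 in late LM8. All 6 LM8 arrays were well above background, whereas 1 of 3 early and 2 of 3 late Dunn arrays were, so the size of the fold rests on dim Dunn spots. No LM8 value overlapped a Dunn value.

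At early passage LM8 exceeded Dunn in Phex by 4.34 (SE 0.74, 95% interval 2.57 to 6.12, adjusted p = 0.0308), 20.3-fold, and by 3.60, 3.75 and 5.68 within slides. At late passage it did so by 3.12 (SE 0.43, 95% interval 2.04 to 4.20, adjusted p = 0.026), 8.69-fold, and by 2.68, 3.07 and 3.60 within slides. The direction was the same in every setting tried, but the call was not: with slide as a block the adjusted p was 0.0501 at early and 0.0884 at late passage, and with quantile normalization 0.0526 and 0.0993. After normexp background correction the early difference was 1.07 (adjusted p = 0.145) and the late one 1.91 (adjusted p = 0.0179). Removing early LM8 replicate 1 (4.80), 2 (3.95) or 3 (4.29) or early Dunn replicate 3 (3.74) ended the early call, and removing late Dunn replicate 2 (3.35) or 3 (3.06) or late LM8 replicate 2 (2.91) or 3 (2.94) ended the late one. With passage Phex differed little in LM8 (0.18, SE 0.51, 95% interval -1.04 to 1.39). In Dunn it was 1.40 higher at late passage (SE 0.71, adjusted p = 0.782), and the difference of the passage effects was -1.22 (SE 0.94, unadjusted p = 0.221, adjusted p = 1).

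**Figure D3:**
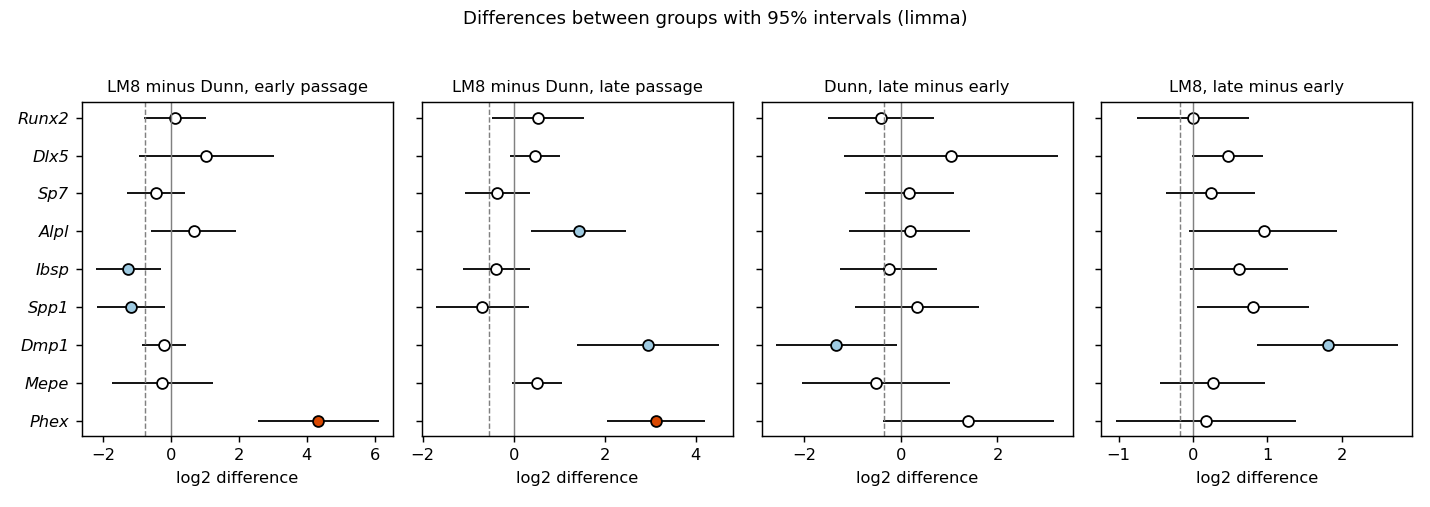
Log2 differences of the 9 measured genes in the 4 comparisons of 2 groups, with 95% intervals from limma. Dashed lines mark the median of all genes (-0.76, -0.55, -0.34 and -0.18 from left to right), red points passed the adjusted threshold (Phex, 4.34 and 3.12), blue points only the unadjusted one, and open points neither.

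Osteocalcin itself (Bglap) could not be followed for want of a matched probe. Its near-identical neighbours Bglap2 and Bglap3 had 1 each, and since their sequences are so alike, the signal of either may include the other and Bglap. Bglap2 averaged 6.21 ± 0.41 (SD, n = 3) in early Dunn, 5.44 ± 0.54 in late Dunn, 4.84 ± 0.16 in early LM8 and 5.18 ± 0.19 in late LM8. Early LM8 was below early Dunn by 1.37 (SE 0.34) on the log2 scale for Bglap2 (adjusted p = 0.0776) and by 0.92 (SE 0.35) for Bglap3 (adjusted p = 0.0952), with no overlap between groups in either. At late passage the differences were -0.25 (adjusted p = 0.592) and -0.60 (adjusted p = 0.276). The late minus early difference of Bglap2 was below 0 on each Dunn slide (-0.92, -0.01 and -1.40) and above 0 on each LM8 slide (0.66, 0.26 and 0.10).

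The general matrix genes of bone did not pass the test either. Col1a1, the main collagen chain of bone, lay between 4.78 and 5.27 in all group means, and Sparc (osteonectin), a collagen-binding glycoprotein, between 5.91 and 6.62, although 3 Sparc spots were flagged. No comparison gave an adjusted p under 0.238 for either. Dspp, the dentin member of the phosphoprotein family of Ibsp and Spp1, was well above background on 1 of 12 arrays.

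The promoters of the 5 genes whose brightest probe passed the unadjusted threshold in a comparison of 2 groups are shown. A Runx motif and a homeodomain motif were searched, and no motif of Sp7 was. Of genes with 2 starts, the window that holds a match is shown, or the first where neither does. RefSeq windows of the build GRCm38.p6, of which the 250 bases before the transcription start were used, were on hand for 8 of the 10 genes. Sp7 and Dlx5 were without one, and Alpl, Spp1 and Dmp1 had 2 starts each. Both strands were searched for the Runx core ACCACA, which reads TGTGGT on the other strand, and for the homeodomain motif TAATTG, which reads CAATTA there, and no match of one overlapped one of the other. The capitals mark these matches. The lines give Phex (chrX:157415287-157415536) and the first start of Alpl (chr4:137796385-137796634) on the minus strand and, on the plus strand, Dmp1 at its second start (chr5:104202367-104202616), Ibsp (chr5:104299037-104299286) and Spp1 at its first start (chr5:104434861-104435110).
Phex: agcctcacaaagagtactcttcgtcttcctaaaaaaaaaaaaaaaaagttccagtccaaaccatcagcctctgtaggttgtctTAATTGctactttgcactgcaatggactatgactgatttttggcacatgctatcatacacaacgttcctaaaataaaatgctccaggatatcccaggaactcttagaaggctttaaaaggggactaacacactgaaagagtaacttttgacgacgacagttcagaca
Alpl: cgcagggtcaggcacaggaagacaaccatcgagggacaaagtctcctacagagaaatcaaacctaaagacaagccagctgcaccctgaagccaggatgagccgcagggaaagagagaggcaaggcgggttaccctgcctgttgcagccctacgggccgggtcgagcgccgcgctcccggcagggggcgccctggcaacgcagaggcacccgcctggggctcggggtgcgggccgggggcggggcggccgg
Dmp1: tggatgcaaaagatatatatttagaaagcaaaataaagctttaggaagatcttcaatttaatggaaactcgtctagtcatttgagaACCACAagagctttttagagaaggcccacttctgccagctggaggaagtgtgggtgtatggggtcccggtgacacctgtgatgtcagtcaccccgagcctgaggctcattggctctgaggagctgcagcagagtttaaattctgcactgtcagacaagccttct
Ibsp: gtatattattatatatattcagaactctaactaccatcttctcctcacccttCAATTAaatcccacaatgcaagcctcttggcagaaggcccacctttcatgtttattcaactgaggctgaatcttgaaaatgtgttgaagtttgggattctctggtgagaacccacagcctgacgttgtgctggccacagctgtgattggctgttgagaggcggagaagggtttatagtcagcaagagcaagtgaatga
Spp1: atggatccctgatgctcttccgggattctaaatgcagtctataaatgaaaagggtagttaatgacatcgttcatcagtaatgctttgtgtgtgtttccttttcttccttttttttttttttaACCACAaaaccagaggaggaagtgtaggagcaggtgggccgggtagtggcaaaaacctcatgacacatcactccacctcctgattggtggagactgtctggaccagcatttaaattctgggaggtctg
The Runx core lay 164 bases before the second Dmp1 start and 128 before the first Spp1 start, and the homeodomain motif 167 before the Phex and 198 before the Ibsp start. Of the 8 genes, 5 held the Runx core in at least 1 window (Runx2, Spp1, Bglap, Dmp1 and Mepe) and 3 held the homeodomain motif (Ibsp, Bglap and Phex). By window these were 5 and 3 of 11, beside 14% and 7.17% of all 32851 windows. Neither Alpl window held either motif. These letter matches are a description and were set against no binding data.

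The other regulators of osteoblast fate, a list of 18 factors and receptors, included genes that changed in both directions between the lines. At early passage 2 were higher and 3 lower in LM8, and 13 did not pass, where 1.33% of all genes were higher and 3.22% lower. Late arrays gave 1 higher, 2 lower and 15 that did not pass, where 1.25% of all genes were higher and 2.59% lower. The list's medians were -0.92 and -0.75, beside -0.76 and -0.55 for all genes, and 4 of 18 early and 6 of 18 late differences were above 0. Msx2, a homeodomain factor of skull and limb osteoprogenitors, was higher in LM8: it averaged -6.03 ± 0.69 in early Dunn, where no array was well above background, against -2.78 ± 0.25 (SD, n = 3) in early LM8, at least 5.36-fold (adjusted p = 0.0125). At late passage it was -6.14 ± 0.19 against -2.00 ± 0.27, a difference of 4.14 (adjusted p = 0.00233). The early difference of Msx2 turned to -0.36 after normexp correction, and it lost its call without early Dunn replicate 3 (2.93) or any 1 of the early LM8 arrays (3.12 to 3.36).

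Maf, which steers progenitors towards bone rather than fat, and Lef1, a nuclear effector of Wnt signalling, were not well above background on any LM8 array. In Dunn, Maf averaged -0.12 ± 0.38 at early and -0.42 ± 0.48 at late passage (SD, n = 3) on arrays all well above background. The Lef1 probe was dimmer, at -3.80 ± 0.35 with 2 of 3 arrays well above background and -2.08 ± 0.50 with 3 of 3. Maf was at least 200-fold lower in LM8 at early (adjusted p = 0.000368) and at least 152-fold at late passage (adjusted p = 0.000896). For these bounds each dim array counted with its lowest well-measured probe, or with the probe itself where that was brighter. Lef1 was at least 15.7-fold lower at early (adjusted p = 0.00289) and 48.0-fold at late passage (adjusted p = 0.00131). Both kept their calls without any single array and in all 11 other settings.

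Twist1 and Twist2, which bind Runx2 and hold it inactive in progenitors, went apart. Twist1 was 2.67 higher in early LM8 (SE 0.49, adjusted p = 0.0385), but not past the threshold without early Dunn replicate 3 (2.41) or any 1 of the early LM8 arrays (2.39 to 3.05), and its late difference did not pass. Twist2 was 2.94 lower in early LM8 than in early Dunn (difference -2.94, SE 0.37, adjusted p = 0.0107, call lost without any 1 of the early LM8 arrays, -3.15 to -2.76) and then fell with passage in LM8, from -2.69 ± 0.39 to -9.01 ± 0.31, where no late array was well above background, at least 31.5-fold (adjusted p = 0.000311). In Dunn, Twist2 was 0.26 ± 0.41 at early passage and well above background on 0 of 3 late arrays, at least 111-fold lower (unadjusted p = 0.000933, adjusted p = 0.35, with 0.000682 to 0.385 over the other settings). The passage effects of the 2 lines differed by 0.98 for Twist2 (unadjusted p = 0.46, adjusted p = 1). Fosl1, a Fos-family factor that promotes matrix production, was the other gene of the list that changed with passage in LM8, by -2.12 (SE 0.19, adjusted p = 0.00273). By limma none of the 18 changed with passage in Dunn. At an unadjusted p under 0.05 and over 2-fold, 1 was higher and 3 were lower there, beside 1.34% and 3.52% of all genes.

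**Figure D4:**
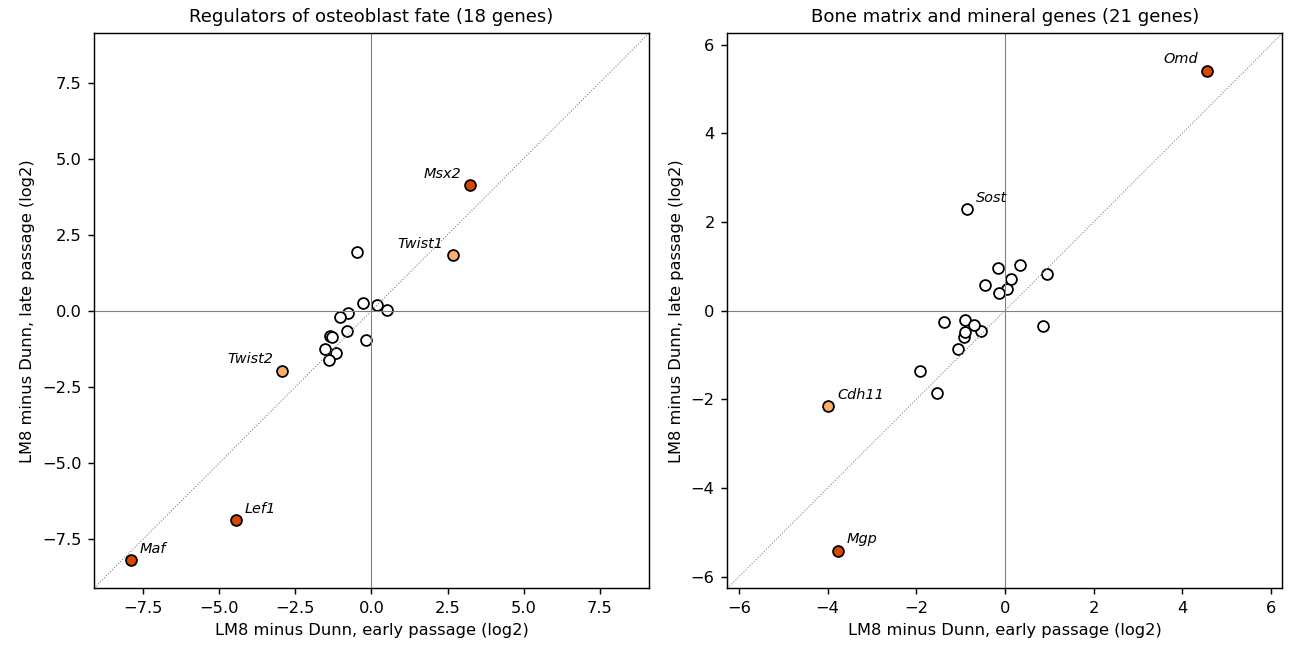
LM8 minus Dunn in log2 at early (horizontal) and late passage (vertical) for 18 further regulators of osteoblast fate (left) and 21 bone matrix and mineral genes (right). Dark points passed the adjusted threshold at both passages (Maf, Lef1, Msx2, Mgp, Omd), light ones at 1, and open ones at neither. The dotted line marks equal differences.

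Of 21 measured genes of bone matrix and mineral handling, 1 was higher and 2 were lower in early LM8 than in early Dunn, and 1 was higher and 1 lower at late passage. Over all genes 1.33% were higher and 3.22% lower at early passage, and 1.25% and 2.59% at late passage. The medians were -0.69 and -0.25. Mgp, the matrix Gla protein that inhibits calcification, was lower in LM8 at both passages and fell further with passage in LM8. Its means were 4.42 ± 0.27 in early Dunn, 3.32 ± 0.24 in late Dunn, 0.65 ± 0.15 in early LM8 and -2.09 ± 0.18 in late LM8 (SD, n = 3 in each). The line difference was -3.77 at early (adjusted p = 0.0023) and -5.41 at late passage (adjusted p = 0.000941), and the change with passage in LM8 was -2.73 (adjusted p = 0.00131).

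Omd (osteomodulin), a small proteoglycan of mineralized matrix, was higher in LM8, by 4.55 at early passage (SE 0.53, adjusted p = 0.00812) and at least 36.2-fold at late passage (adjusted p = 0.00162), where no Dunn array was well above background. The early call was lost without early Dunn replicate 3 (4.37) or early LM8 replicate 3 (4.69). Both LM8 groups were above both Dunn groups, as for Phex. Cdh11, the osteoblast cadherin, was lower in early LM8 (difference -3.99, 15.8-fold, adjusted p = 0.00301). It was well above background on 2 of 3 early Dunn, 1 of 3 late Dunn and no LM8 arrays, and its late difference of -2.15 did not pass (adjusted p = 0.344). No gene of this list changed with passage in Dunn, where 18 of 21 differences were below 0 and the median was -0.35, close to the -0.34 of all genes. At an unadjusted p under 0.05 and over 2-fold in limma, 2 of the 21 were lower there, beside 3.52% of all genes.

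Markers of other cell types moved between the lines as well, where 4.55% of all genes were called at early and 3.83% at late passage. With passage in LM8 the share was 2.82%. Among 7 adipocyte markers, Pparg, the main adipocyte regulator, was lower in LM8, at -2.84 ± 0.12 against 3.84 ± 0.39 in early cells (difference -6.68, adjusted p = 0.000465) and -2.88 ± 0.15 against 3.08 ± 0.20 in late cells (difference -5.96, adjusted p = 0.000712). Adipoq, Plin1 and Lpl also passed the threshold between the early lines, but Adipoq and Lpl were well above background on none of these 6 arrays. All 3 were lost with slide as a block and without early Dunn replicate 3 or any 1 of the early LM8 arrays. Fabp4, which defines mature adipocytes, was not well above background on any array. Cfd and Cebpa did not follow Pparg, and neither passed the threshold. Cfd differed by 1.26 between the early lines (adjusted p = 0.188) and by -0.15 between the late lines. Cebpa differed by 0.01 and 1.77 (adjusted p = 0.32 at late passage). Both were well above background on every LM8 array but not on every Dunn array. Of the 7 differences, 5 at early and 6 at late passage were below 0. Summed over the 7, on the linear scale relative to the 75th percentile and with flagged spots kept, the signal was 11.7 to 19.6 in early and 7.33 to 9.89 in late Dunn, and 0.224 to 0.259 and 0.208 to 0.252 in LM8. Pparg alone gave 93.8% to 98.9% of this sum in late Dunn and 97.6% to 98.5% in early Dunn.

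The 11 chondrocyte markers summed to 93.0 to 105 in early and 66.1 to 119 in late Dunn, and to 50.3 to 58.2 and 39.2 to 55.7 in LM8. Col2a1, the main cartilage collagen, made up at least 93.4% of the sum on every array, and its spot was flagged on 1 array of each Dunn group. Hapln1 and Col10a1 were lower in late LM8 than in late Dunn, and Col10a1 was higher at late than at early passage in LM8, but all 3 calls were lost with slide as a block (adjusted p = 0.064, 0.119 and 0.0682). Both late calls were lost without late Dunn replicate 3 or any 1 of the late LM8 arrays (-5.50 to -5.13 for Hapln1, -2.04 to -1.73 for Col10a1), and that of Col10a1 also without late Dunn replicate 2 (-1.97). The passage call of Col10a1 was also lost with normexp, with the methods' t-test and without slide 1. Sox9 and Matn3 went the other way without passing. In late LM8 they were higher than in late Dunn by 1.23 (adjusted p = 0.281) and 2.59 (adjusted p = 0.259). Matn3 was well above background on 3 late LM8 and 0 late Dunn arrays. Of the 11 differences between the lines, 10 at early and 9 at late passage were below 0.

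Ctsk, a protease of osteoclasts and osteosarcoma cells that is listed among 7 measured haematopoietic markers, was 3.06 higher in early LM8 than in early Dunn (adjusted p = 0.00422) and fell by 5.20 with passage in LM8 (adjusted p = 0.000835). Of that list Ptprc, which all leukocytes carry, was well above background on 2 of 12 arrays, and Adgre1, Acp5 and Lyz2 on 2, 3 and 6. Csf1r and Itgam were so on all 12, with group means of Itgam from 2.38 (early LM8) to 3.18 (early Dunn). The muscle list of 6 genes had 1 change at late passage and 1 with passage in LM8, both of Acta1 and both downwards, and these were lost without late Dunn replicate 2 (-3.64) or any 1 of the late LM8 arrays (-3.73 to -3.62) between the lines and without late LM8 replicate 2 (-2.30) or 3 (-2.27) with passage. With slide as a block the late one was lost (adjusted p = 0.0993). By limma none of the 5 endothelial and 5 epithelial markers changed in any comparison, while 3 and 2 of them were lower in early LM8 at an unadjusted p under 0.05 and over 2-fold, as were 0 and 1 in late LM8. None of these was well above background on any array of its comparison, and 36.7% and 13.3% of all genes passed that rule. The part of these differences in the osteoblast genes was not tested.

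The 5 genes whose scaled signal followed Phex most closely over the 12 arrays, of 10920 genes compared, were Nrp1 (Pearson's r = 0.981), Macroh2a1 (0.974), Tnks1bp1 (0.969), Fam161b (0.961) and Jag1 (0.957). The 12 points share 4 groups and 3 slides, so the coefficients are a description and carry no p. Jag1, a Notch ligand, averaged -3.40 ± 0.16 (SD, n = 3) in early Dunn, -2.76 ± 0.13 in late Dunn, -1.31 ± 0.09 in early LM8 and -1.09 ± 0.36 in late LM8.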

How the data were processed

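Total RNA of 12 samples was labelled with Cy3 and hybridised to Agilent mouse 4x44k arrays. The labels name RNeasy for the RNA and the study's methods TriReagent, and one label calls the cells human although the organism is mouse. The authors deposited the output of Agilent Feature Extraction 10.7.3, whose processed signal is a background-subtracted intensity without scaling between arrays, and 1 table of the same intensity, rounded (largest relative difference 0.00497).

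Neither control spots nor outlier-flagged spots were used, the log2 intensities of 43020 spots were averaged into 39429 probes, and each array's 75th percentile over its unflagged spots was subtracted. Accessions of 26581 probes (67.4%) matched a RefSeq gene. A gene was represented by its probe with the highest mean. Groups were compared in pairs on their 6 arrays with limma version 3.58.1 under R version 4.3.3, using lmFit and then eBayes, without covariates and with Benjamini-Hochberg adjustment over all probes. All 12 arrays entered the difference between passage effects. Flagged values were dropped, not imputed. The number of arrays limits the precision, and p-values measure the spread between replicate samples. They do not measure the spread between separate passaging series. The fit was tested on simulated data with independent noise and no slide effect. That test does not address the dependence between arrays of a slide.

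All 10 listed genes were reported. From a list of regulators and a list of matrix genes, called genes were named, at most 6 per comparison, with Bglap2, Bglap3, Dspp, Col1a1 and Sparc in any case, and the 5 genes most correlated with the listed gene of widest range. Genes and lists were chosen with earlier results of these data known. Alternatives were quantile normalization, another percentile, normexp on the median signal (a mean signal was not used here), no scaling, a filter on dim probes, the mean of a gene's probes, 1 fit of all arrays, the methods' t-test, slide as a block, leaving out each array and, chosen after seeing the data, flagged spots kept and slide 1 left out. Deviations from group means on arrays of the same slide correlated between -0.23 and 0.683, over 0.1 in 12 of 18 pairs.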

Additional observations from a re-analysis of the deposited data

Results flagged for a closer look

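In scaled signal Dmp1 moved down with passage on every slide in Dunn and up on every slide in LM8. The difference of the passage effects was 3.14 in log2 (unadjusted p = 0.000905, adjusted p = 0.119), which did not pass the correction. Its Dunn spots were dim, and the unscaled signal of slide 2 was 33 in early and 39 in late Dunn. The scaled signal of Bglap2 also moved down on each Dunn slide and up on each LM8 slide. Its difference was 1.12 (unadjusted p = 0.0326, adjusted p = 0.772), and its probe may include signal of its near-identical neighbours. Tnc, the matrix protein tenascin-C, differed by 1.03 (unadjusted p = 0.0782, adjusted p = 1) and Dlx6, a homeodomain factor beside Dlx5, by 0.69 (unadjusted p = 0.157, adjusted p = 1). Sost, the Wnt inhibitor sclerostin of osteocytes, differed by 3.15 (unadjusted p = 0.0292, adjusted p = 0.736), but it was well above background only on the 3 late LM8 arrays. Lef1 moved up with passage in Dunn and down in LM8, with a difference of -2.42 (unadjusted p = 0.000765, adjusted p = 0.108), and it was not well above background on any LM8 array. In these 6 genes all slides of one line moved opposite to all slides of the other in scaled signal. They came from 9 osteoblast genes, 18 regulators and 21 matrix genes. The share of all genes with this pattern was not counted, so the number 6 is a description only. With 3 arrays a group, no single-array outlier test was made.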

How the results depend on the processing

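The count of osteoblast genes called depended on the setting. Between the early lines, 1 gene (Phex) became 0 with quantile normalization, 0 with the methods' t-test, 0 with slide as a replicate block and 2 in 1 fit of all 12 arrays (Ibsp added). With normexp it was again 1, but the gene was Mepe (-1.63, adjusted p = 0.0488), well above background on 0 of 3 early Dunn arrays, in a setting that called 44.7% of all genes. Between the late lines, 1 became 0 with quantile normalization and 0 with slide as a block, and 2 with dim probes filtered, in the 12-array fit and without slide 1, with Dmp1 added each time. With passage in LM8 and for the difference of passage effects, 0 became 1 (Dmp1) with dim probes filtered. Leaving out each array in turn gave 0 to 0 calls with passage in Dunn, 0 to 1 in LM8, 0 to 2 between the early lines, 0 to 2 between the late lines and 0 to 0 for the difference of passage effects. Leaving 2 arrays in a group lowers the residual degrees of freedom.

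Single values of the 9 genes kept direction and call in 720 of 801 recomputations, 57 uncalled differences changed sign, 14 lost and 10 gained a call, and none turned with a call. For the other named genes 4078 of 4581 kept both, 291 uncalled differences changed sign, 108 lost and 102 gained a call, and 2 turned with normexp, both between the early lines: Msx2 to -0.36 and Enpp1 to -1.78. The cause was not tested. Of the calls in the lists of regulators and of matrix genes, 7 of 10 and 5 of 6 held without any single array. With slide as a block 7 of 10 and 5 of 6 held, the losses being Twist1 and Twist2 between the early lines and Msx2 and Omd between the late lines. Without Dunn_25 replicate 3, or without any 1 of the LM8_24 arrays, the early calls of Msx2 and Twist1 were lost, without any 1 of the LM8_24 arrays that of Twist2, and without Dunn_25 replicate 3 or LM8_24 replicate 3 that of Omd. Scaling moved the median of all genes between the early lines from -0.76 to -0.19 with quantile normalization, -0.31 with the percentile over well-measured probes, -1.15 with normexp and 0.71 without scaling, and between the late lines from -0.55 to -0.11, -0.32, -0.64 and 0.32. Signal over background limited Phex and Dmp1 in Dunn and Mepe in every group but late LM8.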
